A study of Mus musculus with 5 samples.

Results

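ABC transporters are membrane proteins that use ATP to move drugs, dyes, lipids and conjugated metabolites across membranes, and 10 of their genes were followed here in hematopoietic stem cells (HSCs) of mice with and without Atxn1L. The genes were Abcg2, Abcb1a, Abcb1b, Abcc1, Abcc2, Abcc3, Abcc4, Abcc5, Abcg1 and Abca1. They were taken by name and not by their values, though earlier results of these data were known. All probe sets that the array's annotation gives to exactly 1 of these genes were used, 25 of the 45037 probe sets tested, and all 10 genes had at least 1, out of 18193 genes that the array measures alone. RNA came from 3 pools of WT HSCs and 2 pools of Atxn1L null HSCs, all from C57Bl/6 mice, with 1 Affymetrix array per pool. The labels give the age of the mice as 6 to 8 weeks, and the study's methods give 8 weeks. In both genotypes the HSCs were Lineage-negative cells of the side population that carried Sca-1, c-Kit and CD150. How many mice made up a pool is not stated, and RNA was amplified before it was labelled. The labels call the allele a knockout and name no Cre or cell type to which it is restricted.

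The side population is the group of marrow cells that stay dim after staining with the dye Hoechst because they pump it out. Abcg2, also called Bcrp1, is the pump best known for this in mouse marrow, and the P-glycoprotein genes Abcb1a and Abcb1b encode pumps that can also export Hoechst. The Abcc proteins mostly export organic anions and conjugates with glutathione, while Abca1 and Abcg1 pass cholesterol to lipoproteins and are known to restrain the proliferation of hematopoietic stem and progenitor cells. Since cells were sorted on dye efflux in both genotypes, the arrays show transcript levels among cells that had already been kept for pumping, and neither protein nor efflux was measured.

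Values are log2 GCRMA values, on which a difference of 1 is a 2-fold change, and a probe set was read as dim if its mean was below 5 in both genotypes. Different probe sets bind their targets differently, so each was compared between genotypes and not with another. A probe set was called at the study's criterion, a limma p of at most 0.05 with a fold of at least 1.5, a log2 difference of 0.58. Calls were repeated with each array left out in turn, and without a null array the genotype has 1 array left, which is then assumed to vary like the WT arrays.

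Among the 10 transporter genes Abcc4 was the only one that was called, and it was higher in Atxn1L null HSCs. Of the 25 probe sets, 1 was called higher and none lower. Of all probe sets 2.38% were called, 1.13% higher and 1.25% lower, so that the share of 4% among the transporters rests on 1 probe set. Read by gene, through the probe set of highest mean, it was 1 of 10, where 3% of all genes were called, 1.57% higher and 1.43% lower. Of the 11 probe sets that were not dim, 1 was called (9.09%), against 7.44% of all probe sets at that level. The median difference of the 25 was -0.003 and that of all probe sets -0.003. With p-values adjusted by the Benjamini-Hochberg method in limma none of the 25 passed, as against 0.00222% of all probe sets, and the lowest adjusted p was 0.50. Abcc4 and Abcc1, 2 of the 25, had an unadjusted p within the threshold of 0.05, as did 5.59% of all. Both null pools read above or below all WT pools for 6 of the 25, 3 in each direction. Of all probe sets 14.2% were separated in this way, 6.75% higher and 7.5% lower. By gene, 3 of the 10 were separated higher and 1 lower, and of all genes 9.14% and 8.35%. Every separated gene of the 10 was among the 8 that were not dim. Of all genes at that level 33.8% were separated, 18.4% higher.

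**Figure D1:**
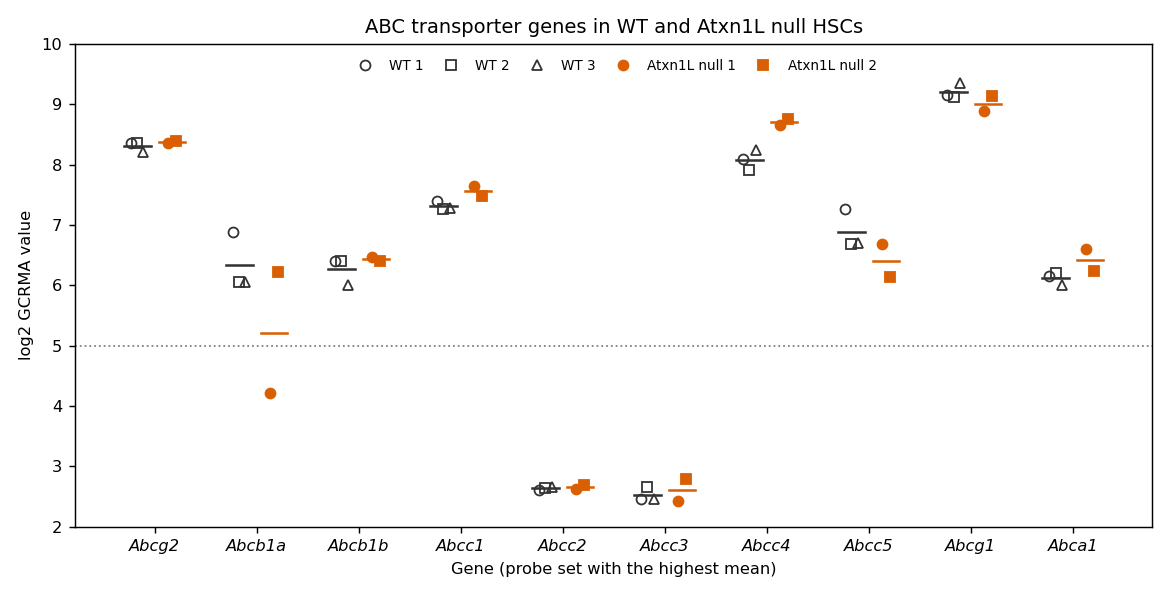
Log2 GCRMA values (vertical axis) of each of the 10 genes, read by its probe set of highest mean (horizontal axis), a point per array, WT open and Atxn1L null filled, with a bar at each genotype's mean and a dotted line at 5. Both null points of Abcc4, at 8.65 and 8.76, lie above its WT points at 7.91 to 8.24, and the null points of Abcb1a are spread from 4.21 to 6.22.

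Abcc4 (also called MRP4), which exports cyclic nucleotides, prostaglandins and nucleotide analogs, had a single probe set. It read 8.10, 7.91 and 8.24 in WT pools, against 8.65 and 8.76 in the null pools. All null values lay above all WT values, at means of 8.08 ± 0.17 (SD, n = 3) for WT and 8.71 ± 0.07 (SD, n = 2) for null HSCs. The log2 difference was 0.62 (standard error 0.12), a 1.54-fold rise with a 95% interval of 1.23-fold to 1.94-fold (limma adjusted p = 0.50). The rise lies close to the required fold, and the call ended without the second WT array (0.54) and without the second null array (0.57), both for want of the fold. The annotation ties 4 of the 25 probe sets to a RefSeq mRNA, and that of Abcc4 is not among them. Platelets are rich in Abcc4, and of 4 measured markers of megakaryocytes and platelets none was called. They summed to 11.10 to 11.54 over WT pools, against 10.86 and 11.65 over null pools, with Ppbp and Gp9 dim in both. Pf4 and Itga2b were well above the dim level. Pf4 lay at 10.84 to 11.29 over WT pools, with the null pools on either side at 11.44 and 10.46. Itga2b lay at 8.40 to 8.78 over WT pools, and its null values, both 8.70, fell inside that range. The part of such cells in the Abcc4 values was not tested. As a sign of RNA quality or amplification, the 3' value of the Gapdh control exceeded its 5' value by 5.94 ± 0.07 (SD, n = 3) for WT and 7.27 ± 0.09 (SD, n = 2) for null pools. For beta-actin this gap was 6.57 ± 0.15 (SD, n = 3) and 7.35 ± 0.10 (SD, n = 2). Both gaps separate the genotypes, and their part in the Abcc4 result, or in any other difference given here, was not tested.

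The RefSeq table used here, on build GRCm38.p6, lists starts for 7 of the 10 genes, 10 windows in all, and none for Abcc1, Abcc3 and Abcg1. Of the windows, 3 are shown, a window of Abcc4 as the called gene and those of Abcb1a and Abcb1b as the neighbouring pair described next. Each holds the 250 bases before the start, 5′ to 3′ on the strand of the gene, and capitals mark a match to a core motif of the hypoxia-inducible factors (ACGTG) or of the antioxidant response (TGACNNNGC) on either strand.
Abcc4, chr14:118706220-118706469, minus strand: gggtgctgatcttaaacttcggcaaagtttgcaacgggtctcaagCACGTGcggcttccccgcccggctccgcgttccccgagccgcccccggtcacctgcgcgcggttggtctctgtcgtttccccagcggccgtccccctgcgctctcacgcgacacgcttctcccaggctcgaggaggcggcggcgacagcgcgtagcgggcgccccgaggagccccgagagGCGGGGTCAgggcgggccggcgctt
Abcb1a, chr5:8566841-8567090, plus strand: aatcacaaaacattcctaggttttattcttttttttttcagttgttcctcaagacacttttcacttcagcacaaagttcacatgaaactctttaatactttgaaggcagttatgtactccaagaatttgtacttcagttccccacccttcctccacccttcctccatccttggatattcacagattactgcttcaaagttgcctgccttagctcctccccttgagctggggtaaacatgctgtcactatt
Abcb1b, chr5:8797897-8798146, plus strand: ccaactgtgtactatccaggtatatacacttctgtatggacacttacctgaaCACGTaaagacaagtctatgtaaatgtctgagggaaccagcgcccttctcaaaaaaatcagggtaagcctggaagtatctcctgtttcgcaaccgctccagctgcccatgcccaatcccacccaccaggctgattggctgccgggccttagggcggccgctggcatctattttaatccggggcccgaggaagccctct
The Abcc4 window shown had 72.0% G and C, that of Abcb1a 40.4% and that of Abcb1b 52.8%, against a median of 52.4% over 32851 windows of this length. The other Abcc4 window, not shown, had 47.6% and lacked the hypoxia core. The hypoxia core was found in windows of Abcc4, Abcb1b and Abca1, 3 of 10, and in 16.6% of all windows. The matches to this core in the Abcc4 window shown overlap, since CACGTG reads the same on both strands. The antioxidant core was found in both windows of Abcc4 and in that of Abcc2, 3 of 10, and in 10.2% of all windows. The octamers TGAATGAA and TGAATGGA, bound by Capicua, a partner of the ataxin-1 proteins, were in none of the 10 windows and in 1.08% and 1.01% of all. These matches describe the letters of the windows, and binding was not measured. No excess is read from so few windows, which come from 7 genes.

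Abcg2, the pump for which the side population is best known, showed no change of the required size. Its only probe set read 8.35, 8.36 and 8.21 in WT pools, against 8.35 and 8.39 in the null pools. The values of the genotypes overlapped, and the means were 8.31 ± 0.09 (SD, n = 3) and 8.37 ± 0.03 (SD, n = 2). The log2 difference was 0.06 with a 95% interval from -0.10 to 0.23, or 0.931-fold to 1.17-fold, so that a change of 1.5-fold lies outside it.

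Abcb1a and Abcb1b both encode P-glycoprotein in the mouse and lie next to each other on chromosome 5, with the phospholipid pump gene Abcb4 beside them. The probe set of Abcb1a that was not dim read 6.89, 6.06 and 6.06 in WT pools, against 4.21 and 6.22 in the null pools. The null pools stood on either side of the 6.06 that a pair of WT pools shared, and the difference of -1.13 (standard error 0.74) had a 95% interval from -3.23 to 0.98. Its size rests on the first null pool. Left as the only null array, that pool gave a difference of -2.13, which was called, and the other gave -0.12. The other probe set of Abcb1a was dim, at 3.05 in WT and 3.06 in null HSCs. Abcb1b was at 6.40, 6.41 and 6.01 in WT pools, against 6.46 and 6.41 in null ones. These values overlapped, the difference was 0.16 (standard error 0.15), and the 95% interval reached from -0.27 to 0.59. With 1 array left out the difference ran from 0.03 to 0.23. Abcb4, outside the 10 genes, read 7.68, 7.55 and 7.26 in WT pools, against 7.86 and 7.43 in the null pools, a difference of 0.14 that was not called.

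Of the Abcc genes beside Abcc4, none was called. Abcc1 (MRP1), which exports leukotriene C4 and glutathione conjugates, read 7.41, 7.26 and 7.28 in WT pools, against 7.64 and 7.47 in the null pools on its probe set with the highest mean. Both null values lay above all WT values, by little, and the difference of 0.24 (limma adjusted p = 0.817) was 1.18-fold, under the required fold. Its 95% interval, 1.02-fold to 1.38-fold, held no change of 1.5-fold. The other probe set of Abcc1, which the annotation ties to a RefSeq mRNA, was dim and differed by 0.02.

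Abcc5 (MRP5), an exporter of cyclic nucleotides, had 10 probe sets, and they did not move one way. The probe set with the highest mean read 7.26, 6.69 and 6.70 in WT pools, against 6.68 and 6.14 in the null pools. The first null pool lay just under the WT pools, and the difference of -0.48 (standard error 0.28) was not called and ran from -0.75 to -0.20 with 1 array left out. The next read 5.89 in WT and 6.13 in null HSCs, a difference of 0.24 in the other direction, and the third probe set that was not dim differed by -0.05. The other 7 were dim and differed by -0.21 to 0.00, and 2 of them had both null values below all WT values. No Abcc5 probe set had a p of at most 0.05, and the lowest was 0.0682.

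**Figure D2:**
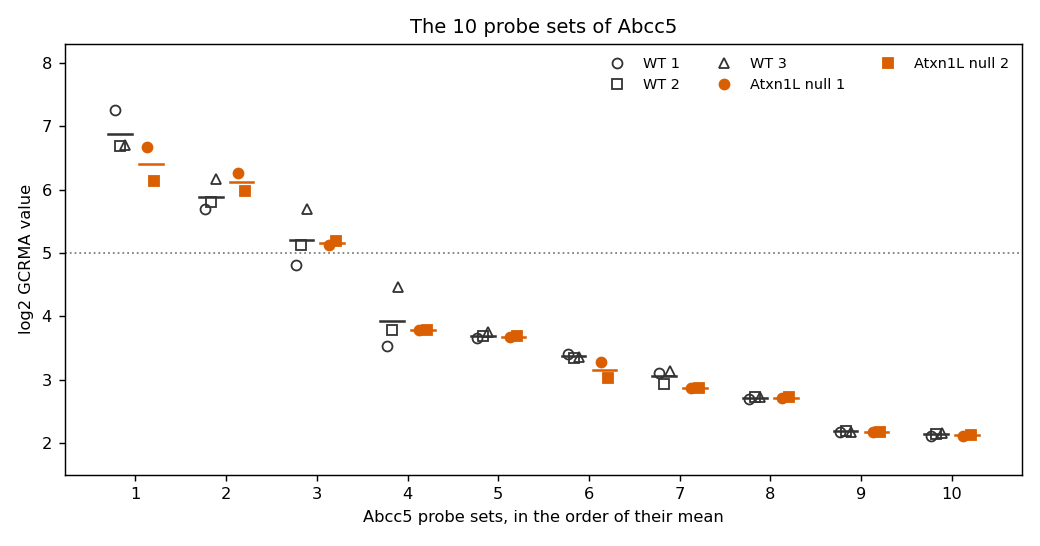
Log2 GCRMA values (vertical axis) of the 10 probe sets of Abcc5, numbered by their mean (horizontal axis), a point per array, with a bar at each genotype's mean and a dotted line at 5. The first probe set is lower in null HSCs by 0.48 and the second higher by 0.24, while the last 7 lie below the dotted line.

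Abcc2 and Abcc3, pumps for conjugates that are best known from the liver, were dim in every pool. Abcc2 read 2.61 to 2.66 in WT pools, against 2.63 and 2.69 in the null pools. Abcc3 read 2.45 to 2.65 in WT pools, against 2.43 and 2.79 in the null pools. Near the floor of the scale a difference is compressed, and these values give no measure of a change in either gene.

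The cholesterol exporters Abcg1 and Abca1 were not called, and their differences had opposite signs. Abcg1 read 9.16, 9.11 and 9.35 in WT pools, against 8.88 and 9.13 in the null pools. The second null pool lay within the WT range, and the difference of -0.20 had a 95% interval from -0.53 to 0.14. With any 1 array left out this lay between -0.32 and -0.07. Its other probe set, at 6.52 and 6.47, differed by -0.05. Abca1 read 6.16, 6.20 and 6.01 in WT pools, against 6.60 and 6.23 in the null pools. Both null values lay above all WT values, the lower of them by little, and the difference was 0.30 with a 95% interval from -0.10 to 0.70. With 1 array left out it lay between 0.11 and 0.48. The other two probe sets of Abca1 were dim, with means between 2.24 and 2.57.

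**Figure D3:**
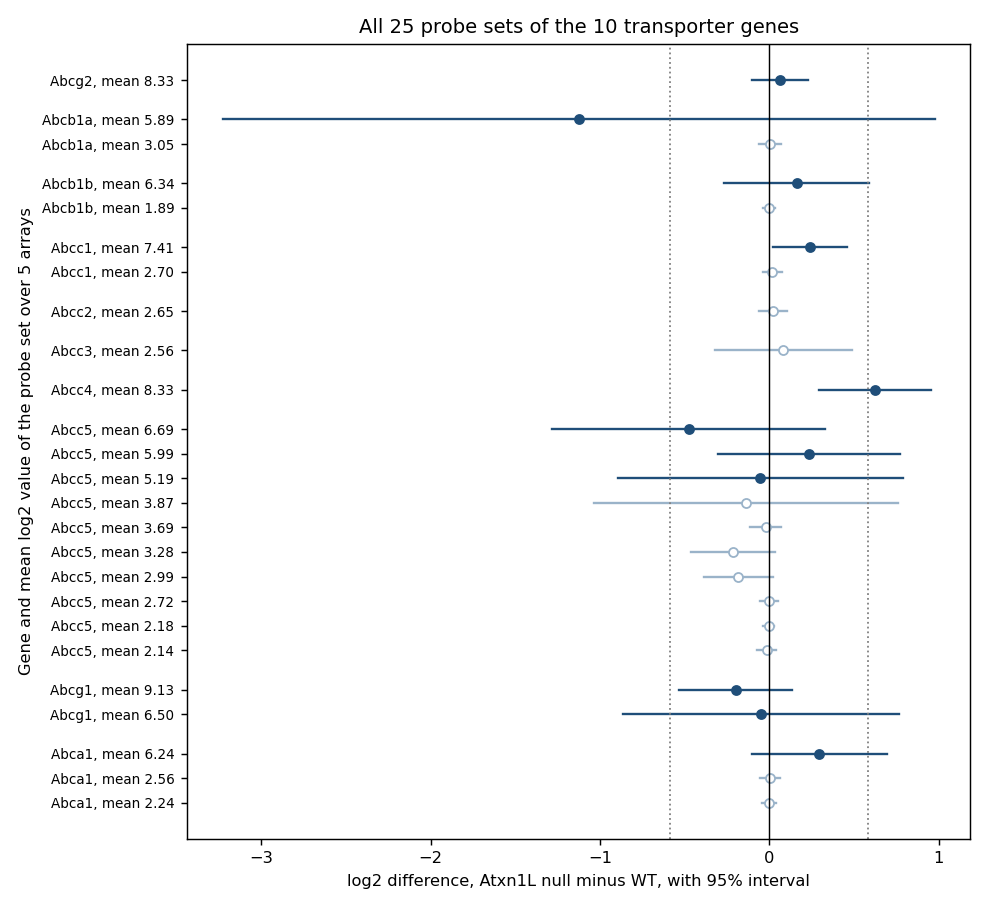
Log2 differences, Atxn1L null minus WT, with 95% intervals (horizontal axis) of all 25 probe sets (vertical axis, grouped by gene with the mean over the 5 arrays), filled where the mean was at least 5 in a genotype and open where dim. Dotted lines mark 1.5-fold in either direction, and only the interval of Abcc4 at 0.62 and that of Abcc1 at 0.24 lie to the right of 0.

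Read by the probe set with the highest mean, the 95% interval of the difference stayed inside 1.5-fold in both directions for 5 genes, and 3 of these, Abcg2, Abcc1 and Abcg1, were not dim. For the other 5, Abcb1a, Abcb1b, Abcc4, Abcc5 and Abca1, it reached 1.5-fold on at least 1 side. These intervals are those of the main fit. With a variance trend and robust estimation the standard error was 0.13 for Abcg2, 0.14 for Abcc1 and 0.16 for Abcg1. In the main fit these were 0.06, 0.08 and 0.12, so which intervals stay inside 1.5-fold depends on the variance model. In 6 of the 25 probe sets a WT and a null array held exactly the same value. These included the only probe set of Abcg2 and that of highest mean for Abcb1b, and the others were dim. The 14 dim probe sets ranged over the 5 arrays by a median of 0.06, and the 11 others by a median of 0.60.

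The cells and genotype were checked on the same arrays. Atxn1l was lower in the null pools on its probe sets that were not dim, the first of which read 6.80, 6.69 and 4.98 in WT pools, against 3.08 and 3.99 in the null pools. Of the HSC surface genes, Kit read 8.26 and 8.00 and Procr 13.57 and 13.39 in the genotypes, while Slamf1, which encodes CD150, was dim at 3.92 and 3.89. The 6 measured markers of mature lineages and the 4 of erythroid cells, which also carry Abcg2, were dim throughout. Of 5 macrophage markers, whose cells carry Abca1 and Abcg1, Csf1r read 6.72 to 6.80 in WT, against 7.46 and 6.87 in null pools, Lyz2 overlapped at 10.33 to 11.13 and at 11.22 and 10.02, and Adgre1, Cd68 and Mrc1 were dim. They summed to 10.50 to 11.22 over WT pools, against 10.21 and 11.34 over null pools, and their part in the Abca1 and Abcg1 values was not tested. In pooled cells, fewer cells of a type and less RNA per cell cannot be told apart. With 3 pools and 2, the smallest p an exact two-sided test can reach is 0.1, and the few arrays set the width of all intervals.

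Among the other ABC proteins, 38 of 43 listed genes were measured, 12 were not dim, and 1 was called higher and none lower, each read by its probe set of highest mean, by which 3% of all genes were called. The called gene was Cftr, the chloride channel of cystic fibrosis. It was dim, at 3.24, 3.32 and 3.35 in WT pools, against 3.91 and 4.03 in the null pools, a difference of 0.67 (limma adjusted p = 0.308). Its null values lay above all WT values, and its other probe set differed by 0.03. Of the Abcb genes outside the 10, Abcb4 and the mitochondrial porphyrin transporter Abcb6, at 6.96 and 6.92, were the only ones listed by that name that were not dim, and all listed Abcc and Abcg genes outside the 10 were dim. The peroxisomal fatty acid transporter Abcd3 read 9.22, 9.25 and 9.56 in WT pools, against 8.88 and 8.93 in the null pools. Its null values lay below all WT values by less than the required fold, a difference of -0.44. The peptide transporters of antigen presentation had differences of 0.15 (Tap1) and -0.91 (Tap2, 6.33 to 7.69 in WT, against 6.33 and 5.99 in null pools), neither called. Abcf1, a ribosome-associated ABC protein, was not called on its probe set of highest mean (10.19 and 9.99), but another of its probe sets was called lower, from 6.51 to 5.91. The median difference of this list was -0.005, and that of all genes -0.002.

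Factors with known control of multidrug pump genes included 2 of 13 measured genes that were called, both lower. Of the 13, 9 were not dim, and of all genes at that level 6.94% were called, 3.5% higher and 3.44% lower. Epas1, which encodes the hypoxia-inducible factor HIF-2α, read 9.21, 9.53 and 9.67 in WT pools, against 8.20 and 8.74 in the null pools. All null values lay below all WT values, and the 2.00-fold fall (limma adjusted p = 0.635) was no longer called without null array 1 (-0.73) or without WT array 2 (-0.97), where the fold was kept and p was lost. Keap1, which marks the antioxidant factor Nrf2 for degradation, read 11.34, 11.06 and 11.43 in WT pools, against 10.50 and 10.84 in the null pools. It fell by 0.61, and the call ended when the first null array or either of 2 WT arrays, the first and the last, was left out, with neither p nor fold met (-0.58 to -0.44). The other probe sets of both genes were dim. Hif1a (8.85 in WT and 8.96 in null HSCs), Arnt, which encodes the common partner of both HIF subunits (4.96 and 5.25), Nfe2l2, which encodes Nrf2 (8.88 and 8.79), and the aryl hydrocarbon receptor gene Ahr (7.46 and 6.88) were not called. Ybx1, named after its value was seen, read 11.43, 11.12 and 11.36 in WT pools, against 10.98 and 10.79 in the null pools. Its difference of -0.41 was under the required fold. Both null values lay below all WT values for 3 of the 13, Epas1, Keap1 and Ybx1, and above them for 1, Hif1a. Of all genes that were not dim 33.8% were separated in either direction.

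Of 16 measured genes of sterol control, 14 of them not dim, 1 was called higher and none lower, a share of 6.25%. Of all genes 3% were called, and of those not dim 6.94%. Insig1, which holds the SREBP processing complex in the endoplasmic reticulum, read 6.08, 6.22 and 6.41 in WT pools, against 7.30 and 6.69 in the null pools. Both null values lay above all WT values, a rise of 0.76 (limma adjusted p = 0.797) that was no longer called with 1 array left out, except without the second null array. Without any 1 WT array the rise was 0.68 to 0.85 and p was lost, and without the first null array it was 0.45. Of the others, Hmgcs1 (10.65 and 11.11) and Sqle (5.58 and 5.68), enzymes of cholesterol synthesis, and the cholesterol ester hydrolase Nceh1 (6.65 and 7.30) also had both null values above all WT values without a call. The list's separated genes were thus 4 of 16, all higher and all among the 14 that were not dim. Of all genes 17.5% were separated on either side, and of those not dim 33.8%, 18.4% higher. No excess is read from 4 genes. Its median difference was 0.03. Srebf2, which encodes a regulator of these enzymes, read 7.85 and 7.79, and Mylip, a target of the LXR receptors as Abca1 and Abcg1 are, 8.53 and 8.55.

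Proteins that anchor pumps to the cortex below the membrane included Rdx, radixin, known for holding Abcc2 in place in the liver. It was the 1 of 5 measured genes that was called, higher, and 4 of the 5 were not dim, a level at which 3.5% of all genes were called higher. It read 8.01, 8.51 and 8.35 in WT pools, against 9.28 and 8.96 in the null pools. Both null values lay above all WT values, a rise of 0.83 (limma adjusted p = 0.642), and the call ended without the first null array (0.67), where p was lost. Its other two probe sets had null values above all WT values too, by differences of 0.32 and 0.12 that were not called. The scaffold gene Slc9a3r1 was not called on its probe set with the highest mean, where the difference was 0.82, and another of its probe sets rose by 0.73. Ezr differed by 0.40 and Msn by 0.37 without a call.

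**Figure D4:**
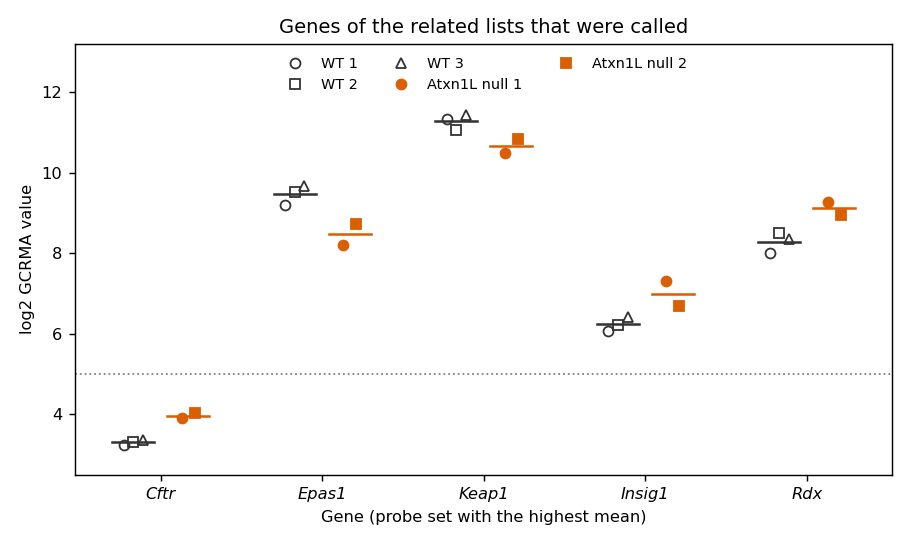
Log2 GCRMA values (vertical axis) of the 5 called genes of the related lists (horizontal axis), a point per array, with a bar at each genotype's mean and a dotted line at 5. Epas1 and Keap1 lie lower and Cftr, Insig1 and Rdx higher in null HSCs, and Cftr lies below the dotted line in all 5 arrays.

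None of 19 genes of glutathione supply, conjugation and leukotriene synthesis, which provide substrates of the Abcc pumps, was called by limma on its probe set of highest mean, and none had an unadjusted p of at most 0.05 there. Gclm, a subunit of the enzyme that starts glutathione synthesis, read 7.77, 7.61 and 7.61 in WT pools on that probe set. The null pools lay on either side of these, at 8.20 and 6.73, so it gives no clear direction. The other probe set of Gclm was called higher. This one read 5.48, 5.62 and 5.46 in WT pools, against 6.26 and 6.24 in the null pools, a difference of 0.73 (limma adjusted p = 0.308). Over all related genes 104 probe sets were not the one of highest mean, and 3 of these were called, those of Gclm, Slc9a3r1 and Abcf1. Of all probe sets 2.38% were called. Those genes of the list with the highest mean were Mgst2, at 11.12 in WT and 10.69 in null HSCs, and Alox5ap, at 11.01 and 10.84. Of 10 measured uptake carriers for organic ions and nucleosides none was called by limma on that probe set, and 1 had an unadjusted p of at most 0.05. The carnitine carrier Slc22a5 read 6.41, 6.37 and 6.41 in WT pools, against 6.53 and 6.59 in the null pools, a separated difference of only 0.17, and it was named after its value was seen. Slco4a1, at 9.78 and 10.35, and Slco3a1, at 6.33 and 7.14, had the highest means of this list. Over the 63 measured genes of these 5 lists, 2 were called in each direction, 6.35% in all, against 3% of all genes. Of the 63, 44 were not dim, and every called gene was among these. Of all genes at that level 6.94% were called. No excess is read from so few calls.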

How the data were processed

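RNA of sorted HSC pools was hybridised to 5 Affymetrix arrays, 3 WT and 2 Atxn1L null. The authors made the deposited log2 values with GCRMA (background correction, quantile normalization and a summary per probe set; version not given in the sources used here). No source states the log base, which was inferred from how far the values extend. After 64 control probe sets were left out of 45101, a mean per genotype was fitted to 45037 with lmFit and eBayes (limma 3.58.1, R 4.3.3), and p-values were adjusted over all of them by Benjamini-Hochberg. Intervals use limma's moderated standard errors. Probe sets were named from the platform annotation, 34945 with 1 gene, and genes in lists were read by the probe set of highest mean. Of the listed related genes and markers, 19 were without a probe set named for them alone and are not analysed here. Members, lists and motifs were chosen with earlier results of these data known. Members were all to be named, as were up to 4 called genes of a list in each direction, or its 2 of highest mean. Other genes are named for their role in a list. The fit was tested on simulated data. Nothing in the labels ties arrays of the same number together or gives a batch. Alternatives changed the variance model, weights, normalization, probe sets, criterion, block and arrays.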

Additional observations from a re-analysis of the deposited data

How the results depend on the processing

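The count of 1 called probe set among the 25 of the transporter genes was the same with a variance trend, array weights, renewed quantile normalization, median centring, without dim probe sets, without those open to cross-hybridization, with the probe sets of a gene averaged and with the replicate block, and Abcc4 was the called gene in each. It was 0 by the adjusted p and 2 by p alone. With 1 array left out it ran from 0 to 1, and without the second null array the 1 was Abcb1a. Of all probe sets, 1074 were called, 257 genes with probe sets averaged, 1 by the adjusted p, 2517 by p alone and 762 with the replicate block, and 709 to 1948 with 1 array left out, the extremes without the first WT and the second null array. Without a null array the other is the only one, so those counts take the spread from the WT arrays. Of the other ABC genes 1 was called, against 2 with array weights, by p alone or with the replicate block, 0 without dim probe sets, without cross-hybridizing ones, averaged or by the adjusted p, and 1 to 2 with 1 array left out. Of the pathway genes 4 were called, against 7 with array weights or by p alone, 2 with the replicate block, 1 averaged, 0 by the adjusted p, and 1 to 8 with 1 array left out. Differences turned sign for 2 dim genes. That of Abcc3 was -0.0436 with array weights and -0.10 to 0.27 with 1 array left out, and that of Abcc2 -0.00922 to 0.0531 with 1 array left out, below 0 for both without the second null array. The cause was not tested. The correlation of same-numbered arrays' deviations was -0.03 and -0.26, which with 2 null arrays cannot decide whether arrays were paired. The labels document no pairing, and the numbers were not read as pairs.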
